A study of Homo sapiens with 6 samples.

Results

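The 9 genes described here encode cell-surface proteins that have been pursued as targets for antibodies, antibody-drug conjugates, radioligands or engineered T cells in prostate cancer: FOLH1, STEAP1, STEAP2, CEACAM5, CEACAM6, PSCA, EPCAM, CD276 and CD46. They were taken by name, as the rows of the deposited expression table whose Ensembl gene IDs carry these symbols in GENCODE release 29, and all 9 were found among 58735 gene IDs. The study sequenced messenger RNA from 2 human prostate cancer cell lines after transfection with siRNA. Each line gave 1 library with PLXND1 siRNA 1, 1 with PLXND1 siRNA 2 and 1 with a control siRNA, so that 6 libraries are compared. H660, or NCI-H660, serves as a neuroendocrine prostate cancer model that grows without androgens. C4-2B MDVR derives from C4-2B cells and tolerates enzalutamide, an antiandrogen drug. PLXND1 encodes Plexin D1, a receptor for semaphorins. Both lines are cultures of tumour cells alone, each line stands for 1 tumour, and the time between transfection and harvest is not given in the sources used here.

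Prostate luminal cells carry a set of surface proteins whose genes respond to androgens, and FOLH1 and the STEAP genes are the ones most used for imaging and therapy. Neuroendocrine prostate cancers often lose these proteins, while carcinoembryonic antigen (CEACAM5) and the Notch ligand DLL3 have been followed as targets in such tumours. EPCAM, CD276 and CD46 are carried by many carcinomas of different origin.

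The 2 lines shared 3 of the 9 antigens at a mean of at least 1 FPKM (fragments per kilobase of exon, scaled to library size, a level per gene length). Over all genes, 13946 reached that mean in H660 and 12888 in C4-2B MDVR, of 15638 that reached it in at least 1 line. In H660 the abundant antigens were CEACAM6, EPCAM and CEACAM5, and FOLH1, STEAP1, STEAP2 and PSCA were near or at 0. In C4-2B MDVR the abundant antigens were FOLH1, STEAP1, EPCAM and STEAP2, and CEACAM5 and CEACAM6 were at 0 in every library. CD276 was at a like level in both lines, and CD46 was 1.70-fold higher in H660. Knockdown of PLXND1 passed the test for 0 of the 9 genes in either line, where 0 of all 15638 genes tested passed.

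**Figure D1:**
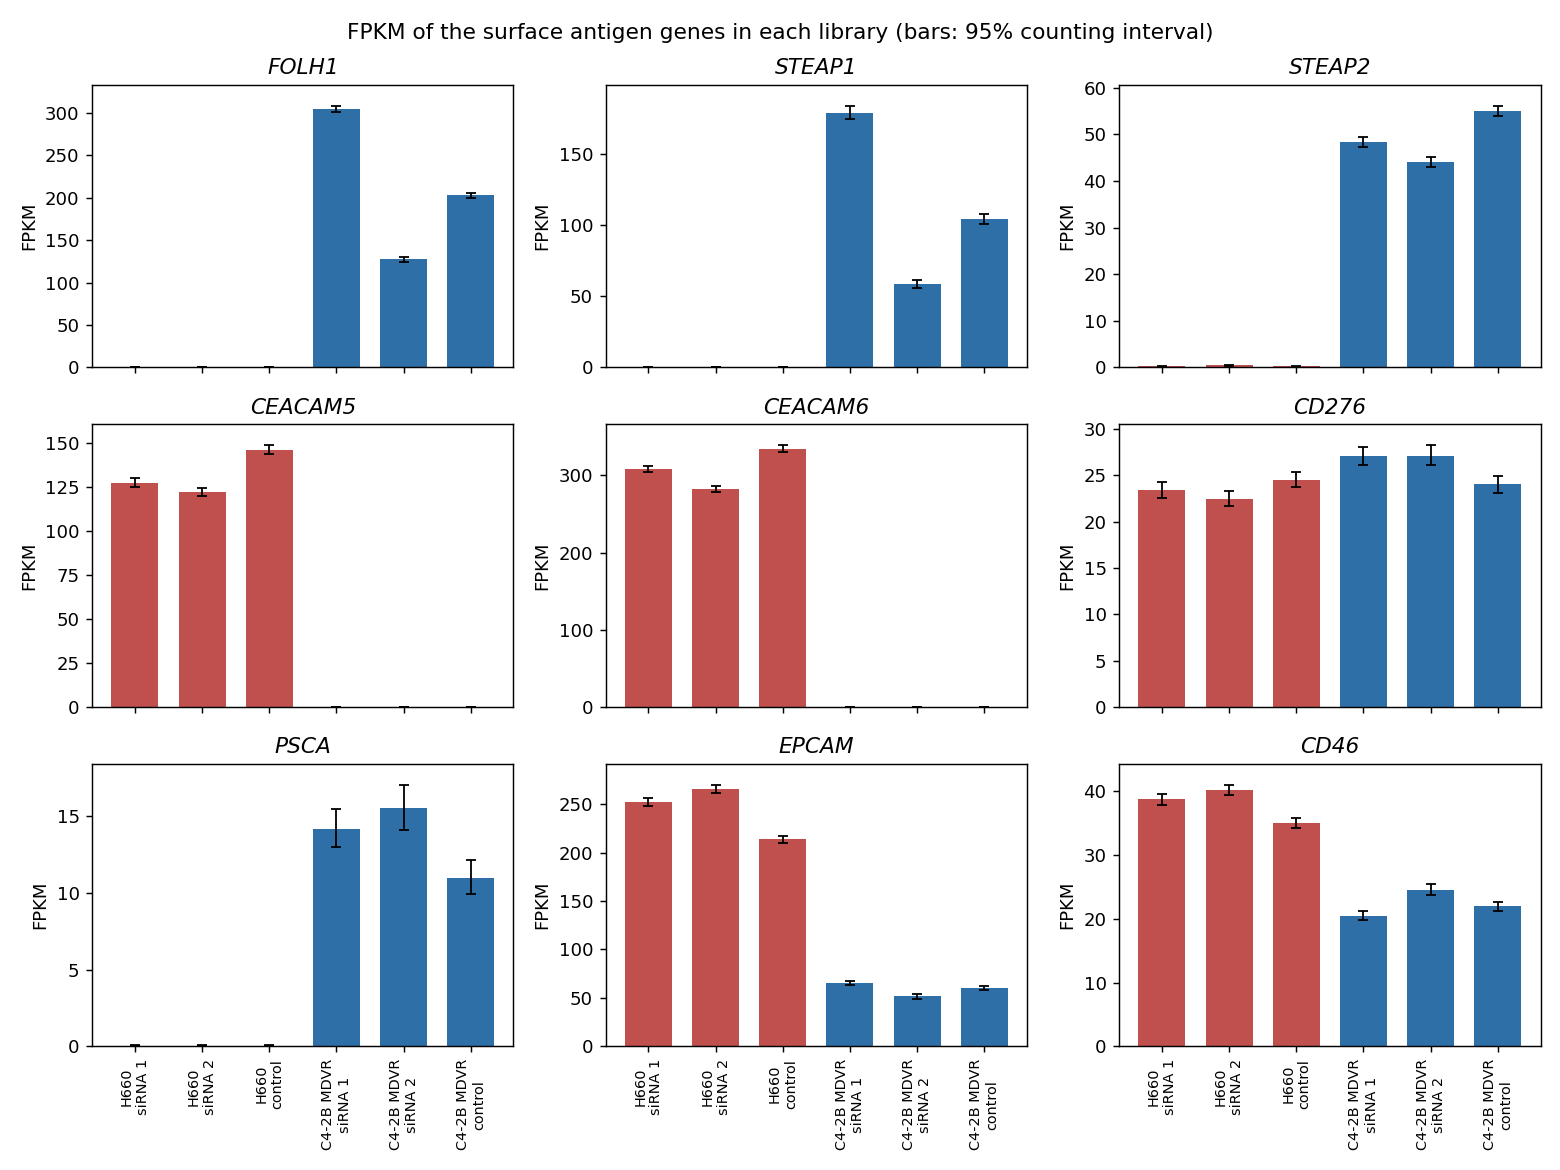
Levels of the 9 genes in FPKM on separate linear axes, for H660 (red) and C4-2B MDVR (blue) with siRNA 1, siRNA 2 and the control siRNA. Bars are single libraries and whiskers are 95% counting intervals; FOLH1, STEAP1, STEAP2 and PSCA are high in C4-2B MDVR, CEACAM5, CEACAM6 and EPCAM are high in H660, and FOLH1 reaches 304 FPKM with siRNA 1 and 127 FPKM with siRNA 2 in C4-2B MDVR.

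The libraries held between 17655802 and 24105369 recovered fragments. The defining markers of the lines were in place, save that 2 luminal keratin genes were higher in H660. The 8 neuroendocrine markers summed to 901 to 950 FPKM in H660 and 3.87 to 5.59 FPKM in C4-2B MDVR. Of the 8 luminal markers, 2 (KRT8 and KRT18) reached 1 FPKM in H660, where 2 others were at 0, and 8 did in C4-2B MDVR. KRT8 averaged 255 FPKM in H660 against 95.5 FPKM in C4-2B MDVR and was called higher in H660 (1.46 log2, limma adjusted p = 0.00163). KRT18 averaged 160 against 96.6 FPKM and stayed under 2-fold (0.75). Fibroblast markers summed to at most 5.06 FPKM, carried by COL1A1. Leukocyte markers summed to at most 2.46 FPKM, with CD3E at 0 in all 6 libraries and PTPRC at 0 in 5. CD14 carried most of the leukocyte sum in H660, at 2.188, 2.325 and 1.799 FPKM with siRNA 1, siRNA 2 and the control. It was at most 0.0767 FPKM in C4-2B MDVR and was called higher in H660 (1.56 log2, limma adjusted p = 0.000124). PLXND1 itself was at 7.62 and 7.54 FPKM with siRNA 1 and siRNA 2 against 9.13 FPKM in the H660 control, and at 1.57 and 3.10 FPKM against 7.40 FPKM in the C4-2B MDVR control. These were 83.5% and 82.6% of the control in H660 and 21.2% and 41.8% in C4-2B MDVR, and the decrease did not pass the limma test in either line (adjusted p = 1 and 0.711).

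Within H660 the order of levels was CEACAM6, EPCAM, CEACAM5, CD46 and CD276 in each of the 3 libraries. Their means were 308.5 ± 26.2, 243.8 ± 27.0, 131.6 ± 12.6, 38.0 ± 2.65 and 23.5 ± 1.01 FPKM (SD, n = 3), and the ranges of neighbours in this order did not overlap. Among protein-coding genes CEACAM6 ranked 44, EPCAM 67 and CEACAM5 169 by mean level. Below them STEAP2 (0.298 ± 0.121 FPKM), STEAP1 (0.147 ± 0.175) and FOLH1 (0.0318 ± 0.0182) were close together, with STEAP1 overlapping both of its neighbours, and PSCA was at 0.

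Within C4-2B MDVR the order was FOLH1, STEAP1, EPCAM, STEAP2, CD276, CD46 and PSCA, again in each of the 3 libraries. The means were 211.4 ± 88.8, 113.7 ± 60.8, 59.0 ± 7.02, 49.2 ± 5.51, 26.1 ± 1.78, 22.3 ± 2.06 and 13.6 ± 2.33 FPKM (SD, n = 3). Across libraries FOLH1 and STEAP1, STEAP1 and EPCAM, EPCAM and STEAP2, and CD276 and CD46 overlapped in range. FOLH1 ranked 123 and STEAP1 312 among protein-coding genes. The 9 genes summed to 751, 733 and 754 FPKM in H660 with siRNA 1, siRNA 2 and the control, and to 659, 348 and 479 FPKM in C4-2B MDVR. CEACAM6 alone made up 44.4% of that sum in the H660 control, and FOLH1 made up 42.4% in the C4-2B MDVR control.

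The difference between the lines was tested with limma on log2(FPKM + 1) in a fit of line and treatment. A gene was called at a Benjamini-Hochberg adjusted p under 0.05 and at least a 2-fold difference. Where a gene is near 0 in 1 line, the added 1 FPKM limits the log2 difference. It then stands for a smaller fold than the ratio of means given beside it. All 9 genes passed the filter of a mean of at least 1 FPKM in at least 1 line. FOLH1, STEAP1, STEAP2, CEACAM5, CEACAM6 and PSCA passed it through 1 line only, so some difference between the lines was built into their passing. The same holds for genes of the related families that reached 1 FPKM in 1 line only, STEAP4, CD55 and TFR2 among them. Of the 9, 3 were called higher in H660, against 20.1% of the 15638 genes tested, and 4 were called lower in H660, against 17.9%. The median difference was −0.14 over the 9 genes and −0.0035 over all genes tested.

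**Figure D2:**
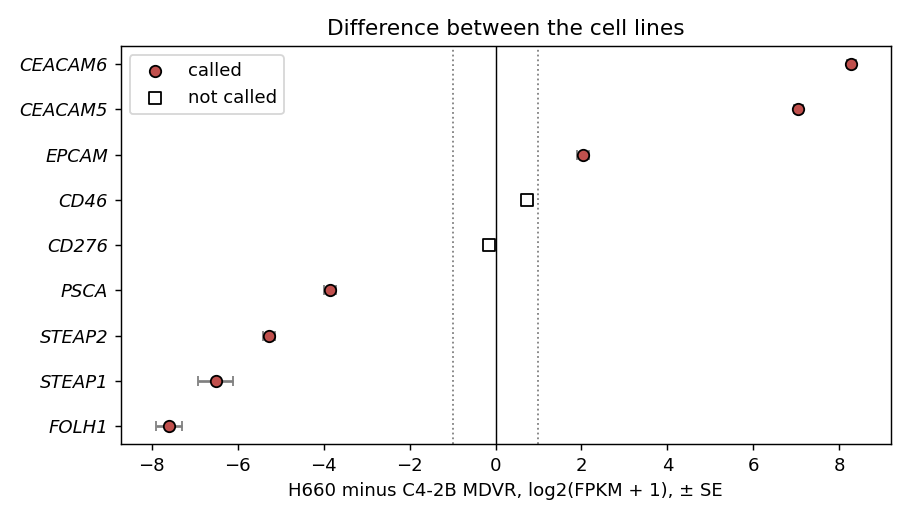
Difference between the lines for the 9 genes, H660 minus C4-2B MDVR in log2(FPKM + 1), with the standard error. Filled points passed the adjusted p and the 2-fold limit (dotted lines); CEACAM6 is at 8.27, FOLH1 at −7.60, and CD46 (0.74) and CD276 (−0.14) are within 2-fold.

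FOLH1 encodes prostate-specific membrane antigen, a carboxypeptidase that is the target of the radioligands in clinical use. The gene (ENSG00000086205) lies on chromosome 11 from 49146635 to 49208670 on the minus strand in GRCh38. In H660 it was at 0.0223, 0.0203 and 0.0528 FPKM with siRNA 1, siRNA 2 and the control, from 2, 2 and 5 fragments. In C4-2B MDVR it was at 304, 127 and 203 FPKM, from 23429, 7900 and 16072 fragments. The lines did not overlap, and the H660 values were at the level of single fragments. FOLH1 was lower in H660 by a ratio of means of 6649 (95% counting interval 3596 to 14930). On the log2(FPKM + 1) scale of the test the difference was −7.60 ± 0.31 (SE, limma adjusted p = 9.08e-06), and limma's voom on recovered fragments gave −12.27. In bulk RNA, fewer cells that carry a transcript and less of it in each cell cannot be told apart. FOLH1B, a near-identical copy on the same chromosome, took 0.166% to 0.353% of the fragments of the pair in C4-2B MDVR, and reads of the copies could be split between them.

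STEAP1 and STEAP2 encode six-transmembrane proteins of the prostate epithelium. STEAP2 is a metalloreductase that reduces iron and copper ions, and STEAP1 binds heme but lacks the reductase domain of its relatives. They stand next to each other on chromosome 7, STEAP1 (ENSG00000164647) from 90154375 to 90164829 and STEAP2 (ENSG00000157214) from 90167590 to 90238137, both on the plus strand, with 2760 bases between them. Because the pair was high and low in the same lines, the windows from 250 bases before to 50 bases after their RefSeq starts are shown (RefSeq, GRCh38.p14). They lie at chr7:90154219-90154518 for STEAP1 and chr7:90211490-90211789 for STEAP2, both plus strand. The STEAP2 window is inside the span of the gene given above, away from the start that faces STEAP1. Capitals mark the SP1 letters GGGCGG, read on the other strand as CCGCCC, in STEAP2.
STEAP1: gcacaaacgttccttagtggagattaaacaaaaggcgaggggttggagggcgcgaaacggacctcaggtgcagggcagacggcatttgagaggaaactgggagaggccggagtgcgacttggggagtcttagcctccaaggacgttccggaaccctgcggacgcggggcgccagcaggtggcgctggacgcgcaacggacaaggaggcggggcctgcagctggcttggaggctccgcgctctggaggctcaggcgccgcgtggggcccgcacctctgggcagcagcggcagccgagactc
STEAP2: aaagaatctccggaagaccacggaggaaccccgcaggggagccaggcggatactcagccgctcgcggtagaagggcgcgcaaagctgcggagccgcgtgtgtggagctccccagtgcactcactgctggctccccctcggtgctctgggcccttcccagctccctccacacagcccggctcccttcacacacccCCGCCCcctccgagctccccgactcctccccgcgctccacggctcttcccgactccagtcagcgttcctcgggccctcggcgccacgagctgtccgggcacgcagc
The windows held 27 and 28 CpG dinucleotides, against a median of 14 in 35116 RefSeq windows of the same length. GGGCGG was in 45.0% of all windows, counting both strands, and it was not in the STEAP1 window. A second STEAP2 window, at chr7:90213570-90213869, held 2 CpG dinucleotides, the forkhead letters TGTTTAC (3.42% of all windows) and the TATA letters TATAAA (11.5%). These windows say nothing of more distant elements.

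STEAP1 was at 0.340, 0 and 0.0994 FPKM in H660 with siRNA 1, siRNA 2 and the control, from 13, 0 and 4 fragments, and at 179, 58.4 and 104 FPKM in C4-2B MDVR. Its 95% counting interval in the H660 siRNA 2 library reached up to 0.0881 FPKM. STEAP2 was at 0.239, 0.436 and 0.218 FPKM in H660, from 49, 98 and 47 fragments, and at 48.4, 44.1 and 55.0 FPKM in C4-2B MDVR. Neither gene overlapped between the lines, and STEAP2 varied less among the C4-2B MDVR libraries than STEAP1. The log2 difference was −6.51 ± 0.40 for STEAP1 (SE; limma adjusted p = 3.8e-05) and −5.27 ± 0.13 for STEAP2 (2.06e-06). As ratios of means, STEAP1 was 775 times and STEAP2 165 times lower in H660. The counting intervals, which are those of the ratio of summed fragments, were 518 to 1426 and 143 to 191.

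Of the 3 other STEAP genes 2 were tested, and they differed in opposite directions. STEAP3, a ferrireductase of the transferrin cycle, was at 23.1, 25.4 and 26.6 FPKM in H660 against 6.89, 15.6 and 9.53 FPKM in C4-2B MDVR (1.22 log2, limma adjusted p = 0.00769). STEAP4, another metalloreductase, was below 0.01 FPKM in H660 and at 3.03, 0.909 and 2.23 FPKM in C4-2B MDVR (−1.54, adjusted p = 0.0033). STEAP1B, a partial copy of STEAP1, took 1.22% to 2.28% of the fragments of the pair in C4-2B MDVR. In H660 the pair held few fragments, 13, 0 and 4 for STEAP1 and 4, 2 and 7 for STEAP1B with siRNA 1, siRNA 2 and the control. How reads were split between the copies was not tested. An antisense transcript, STEAP2-AS1, overlaps both STEAP1 and STEAP2; it was at most 0.200 FPKM, and whether counting used the strand is not given in the sources used here.

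CEACAM5, which encodes carcinoembryonic antigen, and CEACAM6 encode adhesion proteins of the immunoglobulin superfamily that are held in the membrane by a lipid anchor. They lie in the CEACAM cluster on chromosome 19, CEACAM5 (ENSG00000105388) from 41708585 to 41729798 and CEACAM6 (ENSG00000086548) from 41750977 to 41772208, both on the plus strand and 21178 bases apart. The windows around their RefSeq starts, at chr19:41708376-41708675 and chr19:41755280-41755579, are shown because both genes were on in one line and at 0 in the other. The CEACAM6 window is inside the span of the gene given above, not at its start. Capitals mark GGGCGG and TATAAA in CEACAM6, and the CEACAM5 window held neither.
CEACAM5: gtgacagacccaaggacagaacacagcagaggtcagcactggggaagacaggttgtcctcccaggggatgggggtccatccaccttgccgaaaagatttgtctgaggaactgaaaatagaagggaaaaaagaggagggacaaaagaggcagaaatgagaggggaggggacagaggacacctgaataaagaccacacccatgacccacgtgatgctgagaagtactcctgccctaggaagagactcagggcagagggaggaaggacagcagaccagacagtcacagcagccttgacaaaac
CEACAM6: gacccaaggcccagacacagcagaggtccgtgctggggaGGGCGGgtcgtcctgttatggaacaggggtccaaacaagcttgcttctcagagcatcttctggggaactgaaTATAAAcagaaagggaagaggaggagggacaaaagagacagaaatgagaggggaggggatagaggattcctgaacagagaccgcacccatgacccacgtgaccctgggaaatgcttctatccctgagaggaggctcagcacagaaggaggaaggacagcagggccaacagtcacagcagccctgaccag
The 2 windows were identical at 230 of 292 aligned positions (78.8%), with 16 gap positions. The other 14 pairs among the first windows of the 6 genes that matched the table were 47.7% to 64.8% identical. CEACAM5 and CEACAM6 held 2 and 5 CpG dinucleotides, below the median of 14. The NKX2-1 letters CAAGTG, in 11.5% of all windows, were in neither of them nor in any other window of the 6 genes.

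CEACAM6 was at 308.5, 282.3 and 334.7 FPKM in H660 with siRNA 1, siRNA 2 and the control, from 22129, 22199 and 25290 fragments, and at 0 in all 3 C4-2B MDVR libraries. CEACAM5 was at 127, 122 and 146 FPKM in H660 and also at 0 in all 3 C4-2B MDVR libraries. Both genes were on in every library of one line and without a single fragment in the other. Against a floor of 3 fragments over the C4-2B MDVR group, CEACAM6 was at least 17930-fold and CEACAM5 at least 8395-fold higher in H660. The log2 differences were 8.27 ± 0.10 and 7.05 ± 0.10 (SE, limma adjusted p = 8.85e-07 and 1.1e-06). Values of 0 in every C4-2B MDVR library have no spread, so these SE and p-values partly reflect that limit. Genes with at least 10 FPKM in every H660 library and 0 in every C4-2B MDVR library made up 1.06% of the 4252 that reached that level in H660, and CEACAM5 and CEACAM6 were 2 of the 5 antigens that did. This limit of 10 FPKM was chosen after the values were seen.

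The rest of the CEACAM family was nearly silent, since 0 of 10 other family genes reached a mean of 1 FPKM in a line. CEACAM7, which is 1608 bases from CEACAM5 on the other strand, was at 0.594, 0.586 and 0.900 FPKM in H660 and at 0 in C4-2B MDVR. CEACAM3, a receptor of granulocytes 24228 bases from CEACAM6, was at most 0.0393 FPKM. The ribosomal protein gene RPS19, 87709 bases from CEACAM6, was at 95.8 to 102 FPKM in H660 and 156 to 235 FPKM in C4-2B MDVR. CEACAM5 and CEACAM6 are close relatives, and reads of shared stretches could be split between them by the counting.

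PSCA encodes prostate stem cell antigen, a small lipid-anchored protein of the LY6 family. The gene (ENSG00000167653) lies on chromosome 8 from 142670308 to 142682724 and overlaps JRK on the opposite strand. It was at 0 in all 3 H660 libraries and at 14.2, 15.5 and 11.0 FPKM in C4-2B MDVR with siRNA 1, siRNA 2 and the control, from 503, 444 and 401 fragments. The lines did not overlap, and PSCA was at least 589-fold lower in H660 against a floor of 3 fragments over the group. The log2 difference was −3.85 ± 0.13 (SE, limma adjusted p = 5.11e-06). Its H660 values of 0 have no spread, so the SE and p-value partly reflect that limit. Of the 4263 genes with at least 10 FPKM in every C4-2B MDVR library, 0.704% were at 0 in every H660 library, and PSCA was 1 of the 7 antigens that reached that level. JRK was at 8.13 to 9.19 FPKM in H660 and 3.49 to 4.45 FPKM in C4-2B MDVR, opposite in direction to PSCA.

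Of 13 other genes of the LY6 and PLAUR family 7 were tested, with 3 called higher and 3 called lower in H660, against 20.1% and 17.9% of all genes tested. All 7 passed the filter through 1 line only, 3 through H660 and 4 through C4-2B MDVR, so the counts show no more than which line each gene was on in. LY6E, an interferon-induced antigen, was at 0 in H660 and at 87.8, 90.2 and 93.6 FPKM in C4-2B MDVR (−6.52 log2, limma adjusted p = 1.1e-06). LYNX1, a modulator of nicotinic receptors 88472 bases from PSCA, was also lower in H660 (−3.40), as was LYPD3 (−1.43). LYPD1 (1.72), the urokinase receptor gene PLAUR (1.35) and LYPD6 (1.11) were higher in H660. The median of the 7 was −1.26, the value of SLURP1, which did not pass, against −0.0035 over all genes tested.

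EPCAM encodes an adhesion protein of epithelia that binds its own kind on neighbouring cells and is used to capture circulating tumour cells. The gene (ENSG00000119888) lies on chromosome 2 from 47345158 to 47387601 on the plus strand. It was at 252, 266 and 214 FPKM in H660 with siRNA 1, siRNA 2 and the control, and at 65.4, 51.5 and 60.2 FPKM in C4-2B MDVR. EPCAM was the only one of the 9 above 50 FPKM in all 6 libraries, and the lines did not overlap. It was 4.13 times higher in H660 (counting interval 4.01 to 4.20), a log2 difference of 2.03 ± 0.14 (SE; limma adjusted p = 6.78e-05).

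Among 12 relatives and partners of EPCAM 11 were tested, with 5 called higher and 2 called lower in H660, against 20.1% and 17.9% of all genes tested. Their median was 0.21, against −0.0035 over all genes tested, and TSPAN8 passed the filter through H660 only. The tetraspanin gene TSPAN8 was at 37.6, 37.2 and 36.1 FPKM in H660 and at 0 in C4-2B MDVR (5.25 log2, limma adjusted p = 1.1e-06). The protease inhibitor gene SPINT2 (1.54), the claudin gene CLDN7 (1.23) and the sheddase gene ADAM17 (1.01) were higher in H660. Another tetraspanin, CD9 (−2.15), and the gamma-secretase subunit gene PSEN2 (−1.17) were lower in H660.

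CD276 encodes B7-H3, an immunoglobulin-like protein of the B7 family that restrains T cells. The gene (ENSG00000103855) lies on chromosome 15 from 73683966 to 73714518. CD276 was at 23.4, 22.5 and 24.5 FPKM in H660 with siRNA 1, siRNA 2 and the control, and at 27.0, 27.1 and 24.0 FPKM in C4-2B MDVR. The lines overlapped, since the C4-2B MDVR control lay below the H660 control. The log2 difference of −0.14 ± 0.11 (SE) did not pass (limma adjusted p = 0.268), and its sign was the opposite under 3 other scalings or weightings. The first of its 2 RefSeq windows held 37 CpG dinucleotides, at the 90.1 percentile of all windows, and GGGCGG 7 times with overlaps. Of 9 other B7 genes 3 were tested, and 2 were called higher in H660, against 20.1% of all genes tested. Both passed the filter through H660 only. They were VTCN1, which encodes B7-H4 (2.94 to 3.67 FPKM in H660 and 0 to 0.246 FPKM in C4-2B MDVR), and CD274, which encodes PD-L1 (1.83 to 2.10 and 0.0749 to 0.375 FPKM).

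CD46 encodes a cofactor for the cleavage of complement C3b and C4b, which protects cells from complement. The gene (ENSG00000117335) lies on chromosome 1 from 207752057 to 207795513 on the plus strand. It was at 38.7, 40.1 and 35.0 FPKM in H660 with siRNA 1, siRNA 2 and the control, and at 20.5, 24.6 and 21.9 FPKM in C4-2B MDVR. The lines did not overlap, but the difference stayed under the 2-fold limit. CD46 was 1.70 times higher in H660 (counting interval 1.67 to 1.75), or 0.74 ± 0.11 log2 (SE; limma adjusted p = 0.00164), and it reached 1.02 with short and mitochondrial RNAs left out, where it was called. Its relative CD55, which speeds the decay of complement convertases, was called higher in H660 at 3.29 to 3.61 FPKM against 0.384 to 0.756 FPKM in C4-2B MDVR (1.45 log2). CD59, which blocks the membrane attack complex, did not pass, at 6.09 to 6.30 FPKM in H660 and 4.82 to 6.41 FPKM in C4-2B MDVR.

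The effect of PLXND1 knockdown was tested in each line as 2 siRNA libraries against 1 control, in a fit of 4 groups. Of the 9 antigens 0 passed the limma test in H660 and 0 in C4-2B MDVR, where 0.0% of the 15638 genes tested were called in either line. At an unadjusted p under 0.05, 647 genes were below the limit in H660 and 921 in C4-2B MDVR, with 0 of the 9 antigens among them. By limma's voom on recovered fragments 0 genes were called in either line, with 557 and 991 at an unadjusted p under 0.05. The difference of the effect between the lines likewise gave 0 calls, or 0.0%, with 701 genes at an unadjusted p under 0.05 and 754 by voom.

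**Figure D3:**
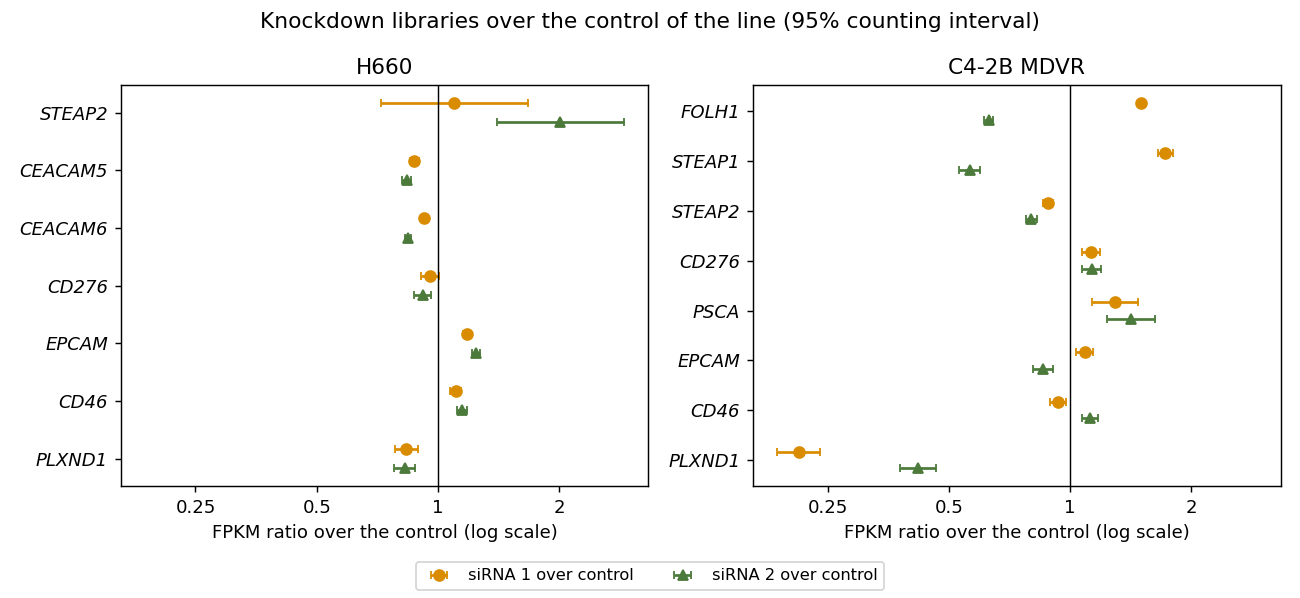
FPKM with siRNA 1 (circles) and siRNA 2 (triangles) over the control of the line on a log axis, for genes with at least 20 fragments in the control. Whiskers are 95% counting intervals; FOLH1 and STEAP1 lie on opposite sides of 1 in C4-2B MDVR (1.50 and 0.627, 1.72 and 0.563), and PLXND1 is at 0.212 and 0.418 there.

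FOLH1 and STEAP1 parted by siRNA in C4-2B MDVR. Over the same control, FOLH1 was at 1.50 (95% counting interval 1.47 to 1.53) with siRNA 1 and 0.627 (0.611 to 0.645) with siRNA 2. STEAP1 was at 1.72 (1.65 to 1.80) and 0.563 (0.529 to 0.597). For both genes the control lay between the siRNA libraries, and the mean of the siRNA libraries was close to it. The tested effects were therefore near 0 with wide errors, at −0.04 ± 0.54 for FOLH1 and −0.02 ± 0.70 for STEAP1 (log2, SE; limma adjusted p = 1 for both).

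With siRNA 1 over siRNA 2, FOLH1 was 2.39 times (2.33 to 2.45) and STEAP1 3.06 times (2.90 to 3.24) higher, with counting intervals. For counts of genes, at least a 2-fold excess was taken as a difference of at least 1 in log2(FPKM + 1). At low levels this is stricter than a 2-fold FPKM ratio. Such an excess of siRNA 1 over siRNA 2 was found for 2 of the 7 antigens with a mean of at least 1 FPKM in C4-2B MDVR, against 2.81% of 12888 genes. In H660 it was found for 0 of 5, against 0.99% of 13946 genes. The direction of this rule is that of FOLH1 and STEAP1. In C4-2B MDVR, at least a 2-fold deficit with siRNA 1 was found for 0 of the 7 antigens and for 246 of the 12888 genes. These are ratios of 1 library to 1 library and have no replicate check. PLXND1 was lower with siRNA 1 than with siRNA 2, at 1.57 and 3.10 FPKM.

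The luminal markers also differed between the C4-2B MDVR libraries. They summed to 1377, 708 and 1024 FPKM with siRNA 1, siRNA 2 and the control. All 8 were higher with siRNA 1 than with siRNA 2, 3 of them by at least 2-fold, and their median difference was 0.90 log2 against −0.0008 over all genes. KLK2, which encodes a kallikrein of the prostate, was highest in the control, at 85.0, 36.2 and 102 FPKM with siRNA 1, siRNA 2 and the control, unlike FOLH1 and STEAP1. The other lists went both ways, for genes with a mean of at least 1 FPKM in C4-2B MDVR. With siRNA 1, 7 of 10 EPCAM relatives and partners were higher (median 0.42), as were 8 of 12 other surface antigens (0.10). Of 4 LY6 and PLAUR genes 3 were lower (−0.09), and the STEAP family and FOLH1 relatives had 1 gene each way. Lists with 1 such gene gave the neuronal enolase gene ENO2 (0.49), the collagen gene COL1A1 (0.50) and CD59 (0.35) as higher, and 1 B7 gene as lower (−0.17). The share of mitochondrial fragments was 7.44%, 6.83% and 3.38%, and the recovered depth was lowest with siRNA 2. The part of these differences in the FOLH1 and STEAP1 values was not tested.

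The other antigens of C4-2B MDVR stayed closer to the control. STEAP2, next to STEAP1, was below it with both siRNAs, at 0.879 (0.854 to 0.905) and 0.801 (0.776 to 0.827), a tested effect of −0.25 ± 0.17 (limma adjusted p = 0.938). PSCA was above it with both, at 1.29 (1.13 to 1.48) and 1.41 (1.23 to 1.62), the largest tested effect of the 9 at 0.40 ± 0.15 (adjusted p = 0.851). CD276 was above it with both, at 1.13 (1.07 to 1.19) each (0.17 ± 0.14, adjusted p = 0.960). EPCAM (1.09 and 0.856) and CD46 (0.934 and 1.12) lay on opposite sides of the control with siRNA 1 and siRNA 2.

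A scale factor in the deposited values moved with treatment in this line. The total implied by the FPKM values was 0.926 and 0.92 of the recovered total with siRNA 1 and siRNA 2, against 1.01 in the control. Rescaled to the recovered totals, a choice made after seeing the data, CD276 was at 1.03 with both siRNAs, and PSCA at 1.18 and 1.29. FOLH1 was then at 1.37 and 0.571, and STEAP1 at 1.58 and 0.512, on opposite sides of the control as before.

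In H660 the 5 antigens above 1 FPKM moved little and in the same direction with both siRNAs. CEACAM5 was at 0.873 (0.850 to 0.897) and 0.835 (0.814 to 0.857) of the control with siRNA 1 and siRNA 2, and CEACAM6 at 0.922 (0.905 to 0.939) and 0.843 (0.828 to 0.859). EPCAM was at 1.18 (1.15 to 1.21) and 1.24 (1.22 to 1.27), and CD46 at 1.11 (1.07 to 1.14) and 1.15 (1.11 to 1.18). CD276 was at 0.955 (0.909 to 1.003) and 0.917 (0.874 to 0.963). The tested effects were −0.23 ± 0.14 for CEACAM5, −0.18 ± 0.15 for CEACAM6, 0.28 ± 0.21 for EPCAM, 0.17 ± 0.17 for CD46 and −0.09 ± 0.14 for CD276 (log2, SE; limma adjusted p = 1 for each). Both siRNA ratios of a gene share the 1 control, so their like direction is not independent evidence. PLXND1 in these libraries was still above 82% of the control.

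A shift of 2-fold or more in one direction by both siRNAs was also counted on log2(FPKM + 1). It was seen for 0 of 5 antigens in H660, against 0.703% of 13946 genes, and for 0 of 7 in C4-2B MDVR, against 1.13% of 12888 genes. FOLH1 and STEAP1 in H660 rested on 0 to 13 fragments a library, and no change could be read there. STEAP2 in H660 was at 1.10 (0.721 to 1.68) and 2.00 (1.40 to 2.90) of the control with siRNA 1 and siRNA 2. The knockdown effect in H660 minus that in C4-2B MDVR was 0.38 ± 0.25 for STEAP2, 0.33 ± 0.29 for EPCAM and −0.26 ± 0.20 for CD276 (log2, SE, limma adjusted p = 0.985 for each). For PSCA it was −0.40 ± 0.22 (adjusted p = 0.985). PSCA was at 0 in every H660 library, so this value is only its C4-2B MDVR effect with the sign turned. CEACAM5 and CEACAM6 were at 0 in every C4-2B MDVR library, so no effect could be read for them there.

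For each antigen the protein-coding genes with the most similar profile were found by the Euclidean distance between mean-centred log2(FPKM + 1) values over the 6 libraries, among 12333 genes. For the antigens that differ between the lines, this distance mostly ranks genes by the size of the line difference. KLK3, which encodes prostate-specific antigen, was number 2 in the order from FOLH1 (distance 0.71). Those nearest to STEAP1 were TMPRSS2 (0.56), a protease gene, and SLC44A4 (0.84), a choline transporter gene. STEAP1 was number 10 in the order from FOLH1, at 1.39.

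**Figure D4:**
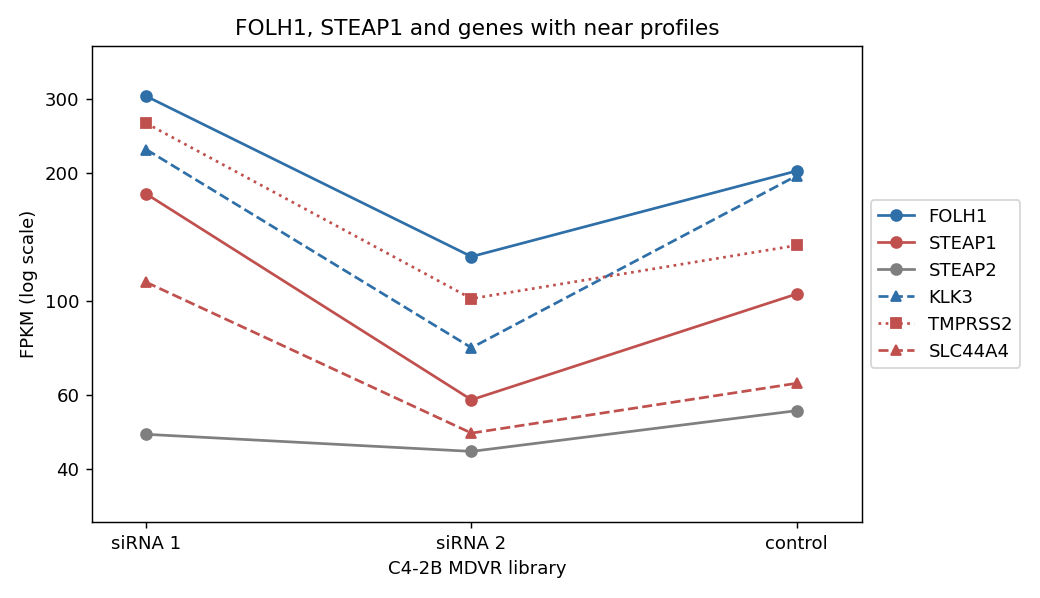
Levels of FOLH1, STEAP1, STEAP2 and genes with profiles near those of FOLH1 (KLK3) and STEAP1 (TMPRSS2, SLC44A4) in the C4-2B MDVR libraries, in FPKM on a log axis; lines join the values of a gene and stand for no order of libraries. FOLH1, STEAP1 and the 3 genes are highest with siRNA 1 and lowest with siRNA 2, and STEAP2 is at 48.4, 44.1 and 55.0 FPKM. The 3 genes were picked by distance over the same libraries, so their likeness is partly built in.

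KLK3 was at 228, 77.5 and 197 FPKM in C4-2B MDVR with siRNA 1, siRNA 2 and the control, and TMPRSS2 at 263, 101 and 135 FPKM. Both had their highest value with siRNA 1 and their lowest with siRNA 2, as FOLH1 and STEAP1 did. This likeness was partly built in, because these genes were picked by distance over the same libraries. STEAP2 had other neighbours, NPPC (0.42), a natriuretic peptide gene, and MXRA8 (0.46). PSCA was nearest to HPR (0.22) and TNFRSF10D (0.22), a decoy receptor gene for TRAIL.

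CEACAM5 was nearest to SLC34A2 (0.15), a phosphate transporter gene, and NKX2-1 (0.29), a transcription factor gene of lung and thyroid. SLC34A2 was at 124, 123 and 161 FPKM in H660 and at most 0.0610 FPKM in C4-2B MDVR. CEACAM6 was nearest to CD74 (0.41), which encodes the invariant chain, and PLAU (0.71), which encodes urokinase. CEACAM5 and CEACAM6 were 1.50 apart, number 6 in the order from CEACAM6 and number 25 from CEACAM5. EPCAM was nearest to RNF146 (0.12) and MED27 (0.17), CD46 to PPP3R1 (0.05) and IBTK (0.10), and CD276 to CDK14 (0.06) and SLC35E3 (0.07).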

How the data were processed

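The deposited values were FPKM, computed by the authors with HISAT and Cufflinks against hg18 per the submitters' processing notes, which give no versions. The 58735 gene IDs are all in GENCODE 29, an annotation of GRCh38, which supplied names, exon lengths and coordinates. FPKM multiplied by exon length came out as whole fragments within 0.05 for 100.0% of genes of at most 100 fragments. Fragments were recovered from that step, and intervals from them (exact Poisson or binomial, 95%) cover counting error only. Beside a ratio of line means, the interval is that of summed fragments over summed implied totals, which is a somewhat different ratio. Tests were two-sided limma 3.58.1 (R 4.3.3) with an intensity trend on log2(FPKM + 1) for 15638 genes with a mean of at least 1 FPKM in at least 1 line, adjusted by Benjamini-Hochberg over all of them, and the fits were tested on simulated data. The additive fit had 3 and the fit of 4 groups 2 residual degrees of freedom, so each lone control is assumed to vary like the siRNA pairs. The labels do not say that libraries came from separate cultures, so p-values measure only the spread between these libraries, which may be technical. Named genes were the 9 antigens, PLXND1, genes of the fixed lists that were called or had up to 3 largest differences, and the 2 nearest profiles of each antigen; a few of these genes are not reported here. The antigens and lists were chosen with earlier results of these data known. Alternatives changed the pseudocount, the filter, the scaling, the trend, the replicate block and the libraries used, and voom was run on recovered fragments. RefSeq windows of GRCh38.p14 were matched by symbol for 6 of the 9 genes; FOLH1, PSCA and EPCAM were not matched.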

Additional observations from a re-analysis of the deposited data

Results flagged for a closer look

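STEAP2 and CD276 went opposite ways in the 2 lines with both siRNAs. STEAP2 was above the H660 control and below the C4-2B MDVR control with each siRNA, and the knockdown effect in H660 minus that in C4-2B MDVR was 0.3793 log2 units. CD276 was below the H660 control and above the C4-2B MDVR control with each siRNA, with a difference of −0.2592. The interaction did not pass for either gene (limma adjusted p = 0.985 each). STEAP2 in H660 rested on 49, 98 and 47 fragments with siRNA 1, siRNA 2 and the control. Rescaled to the recovered totals, CD276 in C4-2B MDVR was at 1.03 of the control with both siRNAs.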

How the results depend on the processing

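The 7 line calls kept their direction and passed under all 15 alternatives, at adjusted p of at most 0.00158. With genes of a mean of at least 5 FPKM 3796 genes were called between the lines. CD276 changed sign between the lines, to 0.0873 (quantile normalization), 0.1373 (short and mitochondrial RNAs left out) and 0.0287 (voom), never passing. With those RNAs left out, 3866 genes were called higher and 2112 lower in H660 (64.67% higher), against 3143 and 2803 (52.86%); the median of all genes was then 0.26 (0.17 by voom), and CD46 was called at 1.02. No antigen passed in either knockdown or in their difference under any alternative, the lowest adjusted p being 0.450 in H660, 0.226 in C4-2B MDVR and 0.281 for the difference.

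Counts of all genes called in H660 were 876 with no filter, 2 at a minimum of 5 FPKM, 1 with a pseudocount of 0.1, 1 with quantile normalization and 1 under the replicate block (siRNA number), and 0 to 49 leaving out 1 library, the 49 without siRNA 2. In C4-2B MDVR they were 851 with no filter, 3 at 5 FPKM and 2 with short and mitochondrial RNAs left out. The difference gave 1372 with no filter. These causes were not tested. The replicate block changed no antigen's call. Deviations of same-numbered libraries had a correlation of −0.0043 over genes. This value cannot show whether the numbers pair samples, since the lines differ and PLXND1 fell little in H660.

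CD46 in C4-2B MDVR turned to −0.0452 (quantile), −0.0621 (those RNAs left out) and −0.1002 (voom), STEAP1 in H660 to −0.8462 and its difference to −0.6895 (voom), and the FOLH1 difference to 0.018 (median ratio), 0.1535 (quantile) and 0.0896 (those RNAs left out). Without siRNA 2, the C4-2B MDVR effects of FOLH1, STEAP1, EPCAM and CD46 changed sign, and leaving out 1 library in turn gave −0.6683 to 0.5833, −0.8194 to 0.7792, −0.221 to 0.1178 and −0.0939 to 0.1554. It gave −0.1368 to 0.2859 for STEAP1 in H660, and differences of −0.6272 to 0.6244 for FOLH1 and −0.7046 to 0.894 for STEAP1; a lone library is then assumed to vary like the others. EPCAM with siRNA 1 over the C4-2B MDVR control was 0.9949 on recovered totals, and rescaling moved 28 other single ratios beyond their counting interval with no change of direction. Genes with at least 2-fold changes by both siRNAs numbered 57 in H660 and 81 in C4-2B MDVR with those RNAs left out, against 98 and 146.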

Other observations

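Among 25 other surface antigens pursued in carcinoma 19 were tested, and 10 were called higher and 2 lower in H660, against 20.1% and 17.9% of all genes tested. The median difference was 1.37 log2 against −0.0035 over all genes tested. Of the 19, 7 passed the filter of 1 FPKM through H660 only (SEZ6, NCAM1, SSTR2, F3, MUC1, PROM1 and CXCR4, of which 6 were called higher) and 2 through C4-2B MDVR only (SLC44A4 and ROR1), so part of their difference, and of the counts and the median, was built into their passing. SEZ6, a neuronal protein pursued in small cell cancers, was at 40.6, 39.2 and 45.7 FPKM in H660 with siRNA 1, siRNA 2 and the control, and 0.505, 0.169 and 0.226 FPKM in C4-2B MDVR (5.05 log2, limma adjusted p = 2.73e-06). DLL3, an inhibitory Notch ligand, was at 32.4, 38.1 and 36.0 FPKM in H660 and 6.66, 8.65 and 10.4 FPKM in C4-2B MDVR (1.95, adjusted p = 9.76e-05), so it was present in both lines. CD24 (4.52), the chemokine receptor gene CXCR4 (4.22), the mucin gene MUC1 (3.40), the adhesion gene NCAM1 (2.57) and the "do not eat me" gene CD47 (2.10) were also called higher in H660, as were PROM1 (1.94), ALCAM (1.53) and the tissue factor gene F3 (1.37).

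The 2 called lower in H660 were SLC44A4 and ERBB2. SLC44A4 was at 0, 0.150 and 0.144 FPKM in H660 and 111, 48.7 and 63.9 FPKM in C4-2B MDVR (−6.02). ERBB2, which encodes the receptor HER2, was at 4.71, 5.47 and 5.38 FPKM in H660 and 75.4, 41.8 and 45.2 FPKM in C4-2B MDVR (−3.11). Of the relatives of FOLH1, the transferrin receptor gene TFR2 was lower in H660 (−1.56), and TFRC, at 39.0 to 42.2 FPKM in H660 and 21.2 to 34.3 FPKM in C4-2B MDVR, stayed under 2-fold (0.66). Knockdown called 0 genes of these lists in either line.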
